A study of Rattus norvegicus with 22 samples.

Results

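The genes described here encode connexins and other junction proteins of the intercalated disc, the site where neighbouring heart muscle cells are joined. They are 9 of the 23479 genes tested on a rat expression array: Gja1, Gja5 and Gjc1 for gap junctions, Cdh2 for the adherens junction, Dsp, Pkp2, Jup and Dsg2 for the desmosome, and Tjp1 for the scaffold at the edge of gap junction plaques. They were taken by gene name, with no threshold on their values. The array measured the 9 genes with 10 probes, 2 of them for Tjp1. The scanner files name 8 of the genes directly, and Gjc1 stands there as Gja7 and was found through its transcript accession. All 9 genes passed the filter on dim signal, although the Dsg2 probe was dim and was above background on 21 of the 22 arrays.

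The intercalated disc couples heart muscle cells electrically and mechanically. Connexins assemble into channels that pass current and small molecules from cell to cell, N-cadherin holds the membranes together and anchors the contractile apparatus through catenins, and desmosomes tie the membrane to the desmin filaments. In embryonic heart cells these proteins are spread around the cell border and gather at the cell ends as the tissue matures, and inherited defects of the desmosomal genes cause arrhythmogenic cardiomyopathy in humans.

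Every tissue was an engineered cardiac tissue, a cylinder of ventricle cells from Sprague Dawley rat embryos of gestational day 14.5 in a matrix gel, held at both ends and cultured for 7 days. From culture day 5, one group was stretched cyclically at 0.5 Hz and 5% elongation for 48 h together with 10 µM BIRB796 (stretch with BIRB796, 4 arrays), one received BIRB796 alone (BIRB796, 4 arrays), one was stretched alone (stretch, 7 arrays) and one received neither (control, 7 arrays). BIRB796 is an inhibitor of p38, a stress-activated protein kinase, and no label gives a vehicle for the tissues without it. The labels name ventricle cells with no sort for muscle cells, and all 10 heart muscle markers examined were above background on all 22 arrays, Tnnt2, Myh6 and Myl7 among them.

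The arrays were scanned in 3 sessions, which limits the comparisons. Session 1 held stretch and control (3 arrays each, 1 of each on each of 3 slides), session 2 held stretch alone (4 arrays), and session 3 held stretch with BIRB796, BIRB796 and control (4 arrays each). Stretch replicates 4 and 5 differed by less than the noise between repeated spots and were counted as 1 sample, which leaves 21 samples. All levels below are log2 signal relative to the 75th percentile of the same array, so 0 is the level of a fairly bright probe, and levels of different genes are not compared because probes differ in brightness. Session 2 was the dimmest, with 65.5% to 73.1% of probes above background, against 82.6% to 91.3% in session 1 and 71.4% to 79.9% in session 3. It was also the most variable: the median gene had an SD of 0.55 among the stretch samples of session 2, against 0.19 to 0.21 within the groups of session 3. In session 1 that SD was 0.36 in stretch and 0.25 in control.

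No gene of the set passed the test in the fit of all 4 groups with a scan session term. Over 6 comparisons limma called 0 of 9 genes at an adjusted p under 0.05 (Benjamini-Hochberg over 23479 genes). The same fit called 0% of all genes in stretch versus control (711 had an unadjusted p under 0.05), 0% in BIRB796 versus control (1459), 0.0767% in stretch with BIRB796 versus control (2191), 0% in stretch with BIRB796 versus BIRB796 (440), 0% in stretch with BIRB796 versus stretch (532) and 0% for the difference between the stretch effects with and without BIRB796 (324). Of the 9 genes, 1 had an unadjusted p under 0.05 in each of stretch versus control (Gja1), BIRB796 versus control (Dsp) and stretch with BIRB796 versus BIRB796 (Gja1), and none did in the other 3 comparisons. This fit shares 1 estimate of the spread over all arrays. For Dsp in BIRB796 versus control the standard error was 0.32 there, 0.22 with the session 2 arrays left out and 0.13 in session 3 alone. With session 2 left out, limma called 0.532% of genes in BIRB796 versus control and 2.79% in stretch with BIRB796 versus control, with 0 of the 9 among them. A fit of session 3 alone, added after the data had been seen, called 1.8% of genes in BIRB796 versus control, 7.6% in stretch with BIRB796 versus control and 0.0767% in stretch with BIRB796 versus BIRB796. In that fit the desmosomal gene Dsp fell in both groups given BIRB796 (limma, adjusted p = 0.0357 in BIRB796 and 0.0294 in stretch with BIRB796), and it was the only one of the 9 genes called in any of the 3 comparisons. Fits of only the 2 groups compared, within their session, called 1.25% of genes in BIRB796 versus control with Dsp among them, 2.77% in stretch with BIRB796 versus control with none of the 9, and 0% in stretch versus control and in stretch with BIRB796 versus BIRB796.

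**Figure D1:**
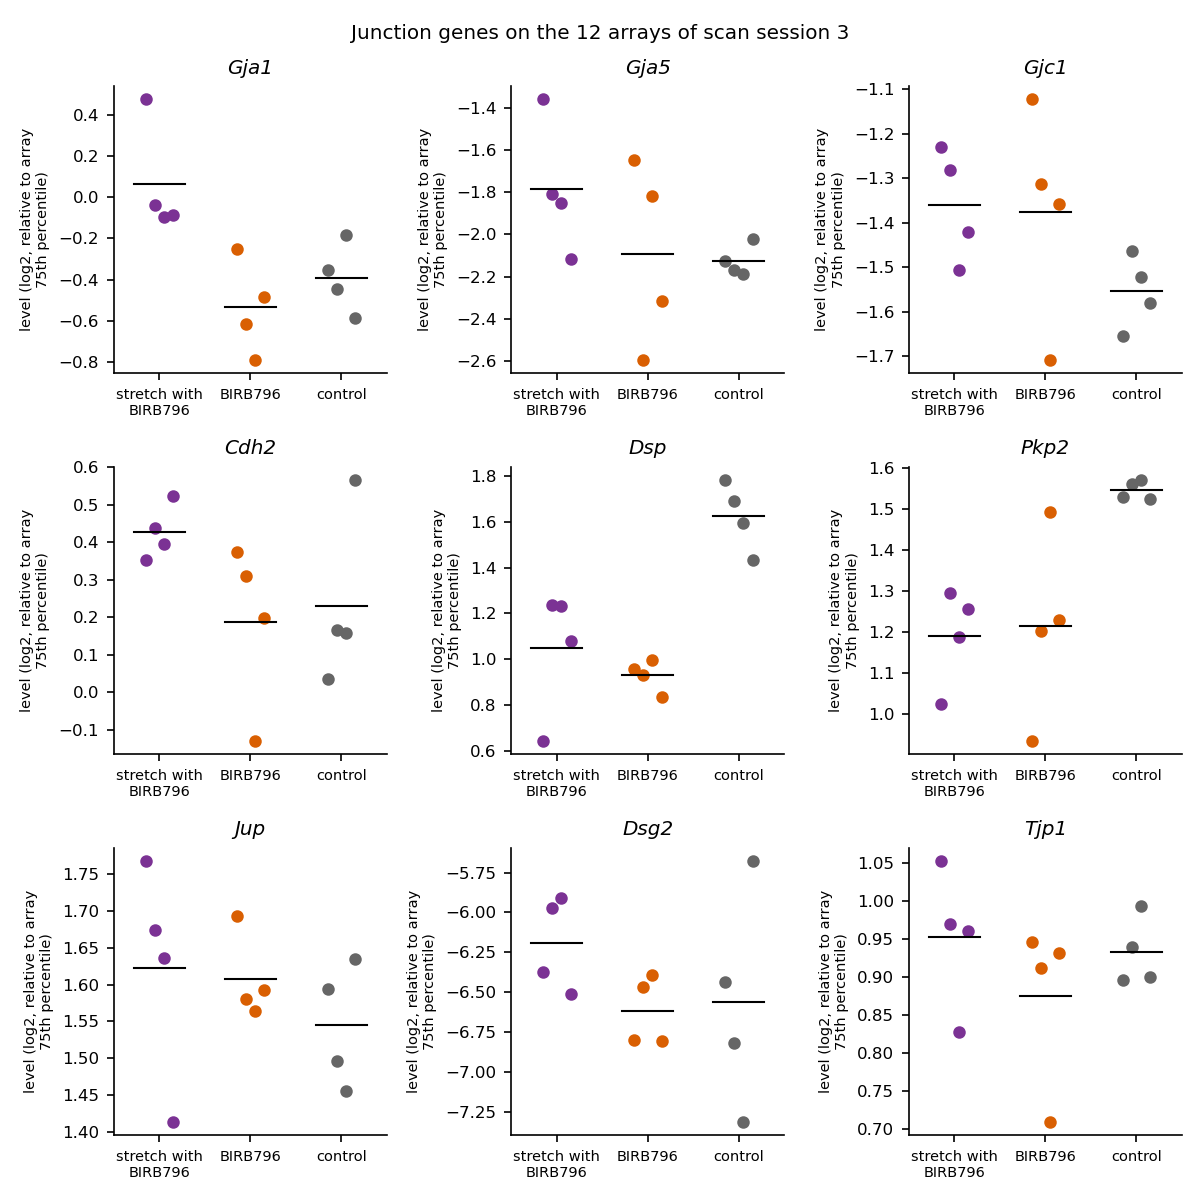
Level of each of the 9 junction genes (log2 relative to the array's 75th percentile, vertical axis) on the 12 arrays of scan session 3, with stretch with BIRB796, BIRB796 and control from left to right, 1 point per array and the group mean as a bar. For Dsp and Pkp2 every array of both BIRB796 groups lies below all 4 control arrays, and for Gja1 all 4 arrays of stretch with BIRB796 lie above all arrays of the other groups.

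Gja1 encodes Cx43, the main connexin of ventricular muscle. The 250 bases before its RefSeq transcription start are shown because Gja1 had the largest difference of the 3 connexins, with capitals marking the only match to the AP-1 motif TGANTCA (AP-1 being the Jun and Fos family of transcription factors), 58 bases before the start. The window lies at chr20:36302314-36302563 of build GRCr8, plus strand, directly upstream of the annotated start.
Gja1 upstream: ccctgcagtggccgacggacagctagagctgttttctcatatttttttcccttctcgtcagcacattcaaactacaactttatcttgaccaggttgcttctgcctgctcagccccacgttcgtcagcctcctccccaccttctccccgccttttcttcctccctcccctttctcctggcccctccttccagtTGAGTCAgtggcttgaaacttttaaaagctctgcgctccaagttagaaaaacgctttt
Both strands were searched for TGANTCA, for the GC box GGGCGG, for the TATA box TATAAA and for the TEAD motif CATTCC, and no other match was found in this window. The motif TGANTCA occurs in 6.34% of the 33469 rat promoter windows of the same length, so a match is uncommon but not rare, and no binding was measured here.

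On the arrays of session 3, Gja1 was highest in tissue that was both stretched and inhibited. Its level was 0.48, -0.04, -0.10 and -0.09 in stretch with BIRB796, -0.25, -0.62, -0.79 and -0.48 in BIRB796, and -0.35, -0.45, -0.18 and -0.59 in control. All 4 stretch with BIRB796 arrays stood above all 8 others, and BIRB796 alone and control overlapped. Stretch with BIRB796 exceeded BIRB796 by 0.60 ± 0.22 on the log2 scale (SE, all 4 groups, adjusted p = 1.00), a fold of 1.52, and exceeded control by 0.46 ± 0.22 (adjusted p = 0.543). With single arrays left out these estimates lay between 0.46 and 0.70 against BIRB796 and between 0.32 and 0.53 against control. The lowest against control came without stretch with BIRB796 replicate 1. In session 3 alone the smaller SE of 0.16 gave adjusted p = 0.292 against BIRB796 and 0.0993 against control under limma, so neither difference passed. Non-overlapping groups are not scarce in that session, since 4.42% of all genes lay wholly higher in stretch with BIRB796 than in BIRB796, and 8.81% wholly higher than in control. The difference was present on each slide that holds both groups: on slide 6 Gja1 was 0.48 in stretch with BIRB796, against -0.25 in BIRB796 and -0.35 in control, on slide 8 it was -0.04 and -0.10 in stretch with BIRB796, against -0.59 in control, and on slide 9 it was -0.09 in stretch with BIRB796, against -0.62, -0.79 and -0.48 in BIRB796.

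Stretch without the inhibitor gave a less even picture. Gja1 was 1.52, 0.99 and 2.07 in the stretch arrays of session 1, against 0.91, 1.28 and 0.68 in the control arrays of the same slides, so it was higher with stretch on slides 1 and 3 (differences of 0.61 and 1.38) and lower on slide 2 (-0.30). The groups overlapped, as they did for all 9 genes in session 1, where 4.51% of all genes lay wholly higher in stretch than in control and 4.29% wholly lower. The estimate was 0.57 ± 0.25 (SE, unadjusted p = 0.0398, adjusted p = 1.00) in the fit of all 4 groups. It was 0.29 without stretch replicate 3 and 0.83 without stretch replicate 2, so single arrays move it, and no single array left out brought it past the test. The stretch effect with BIRB796 minus that without was 0.03 ± 0.34 for Gja1 (adjusted p = 1.00), with the 2 effects taken from different sessions. The 4 stretch arrays of session 2, at 0.62, 0.59, 0.84 and 1.25, have no control of their own session beside them.

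Gja5 encodes Cx40, a connexin of the atria and the conduction system that is present in the early ventricle, and Gjc1 encodes Cx45, an early connexin that persists in the conduction system. Neither was called in any comparison. In session 3 Gja5 averaged -1.78 ± 0.31 in stretch with BIRB796, -2.09 ± 0.44 in BIRB796 and -2.13 ± 0.07 in control (SD, n = 4 each), and Gjc1 averaged -1.36 ± 0.13 in stretch with BIRB796, -1.38 ± 0.24 in BIRB796 and -1.55 ± 0.08 in control. All groups of both genes overlapped, and the interval of the largest of these differences, stretch with BIRB796 against control for Gja5, ran from -0.12 to 0.81 in session 3 alone. In session 1 Gja5 averaged 0.52 ± 0.19 in stretch and 0.57 ± 0.12 in control, and Gjc1 averaged -0.85 ± 0.13 in stretch and -0.88 ± 0.17 in control (SD, n = 3 each).

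Gja5 did differ between scan sessions, by more than any difference between treatments. Control arrays stood 2.70 higher in session 1 than in session 3 for Gja5, 1.35 higher for Gja1 and 0.67 higher for Gjc1, with no overlap, whereas Cdh2, Dsp, Pkp2, Jup and Dsg2 overlapped between the sessions. Such shifts were common: among 23332 genes with values on all control arrays the median shift was 0.44, 38.4% of genes differed by at least 1 and 26.4% were at least 2 higher in session 1. What set the sessions apart was not tested. Stretch and control were not scanned together outside session 1, so a comparison that ignores the session mixes it with the treatment: without the session term the Gja1 difference between stretch with BIRB796 and control was -0.12 instead of 0.46, and that between stretch and control was 1.02 ± 0.30 (SE, limma adjusted p = 0.0845). That fit called 0.00426% of genes in stretch with BIRB796 versus control, 0.562% in stretch with BIRB796 versus stretch and 1.09% in stretch versus control, with 0 of the 9 genes among them.

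**Figure D2:**
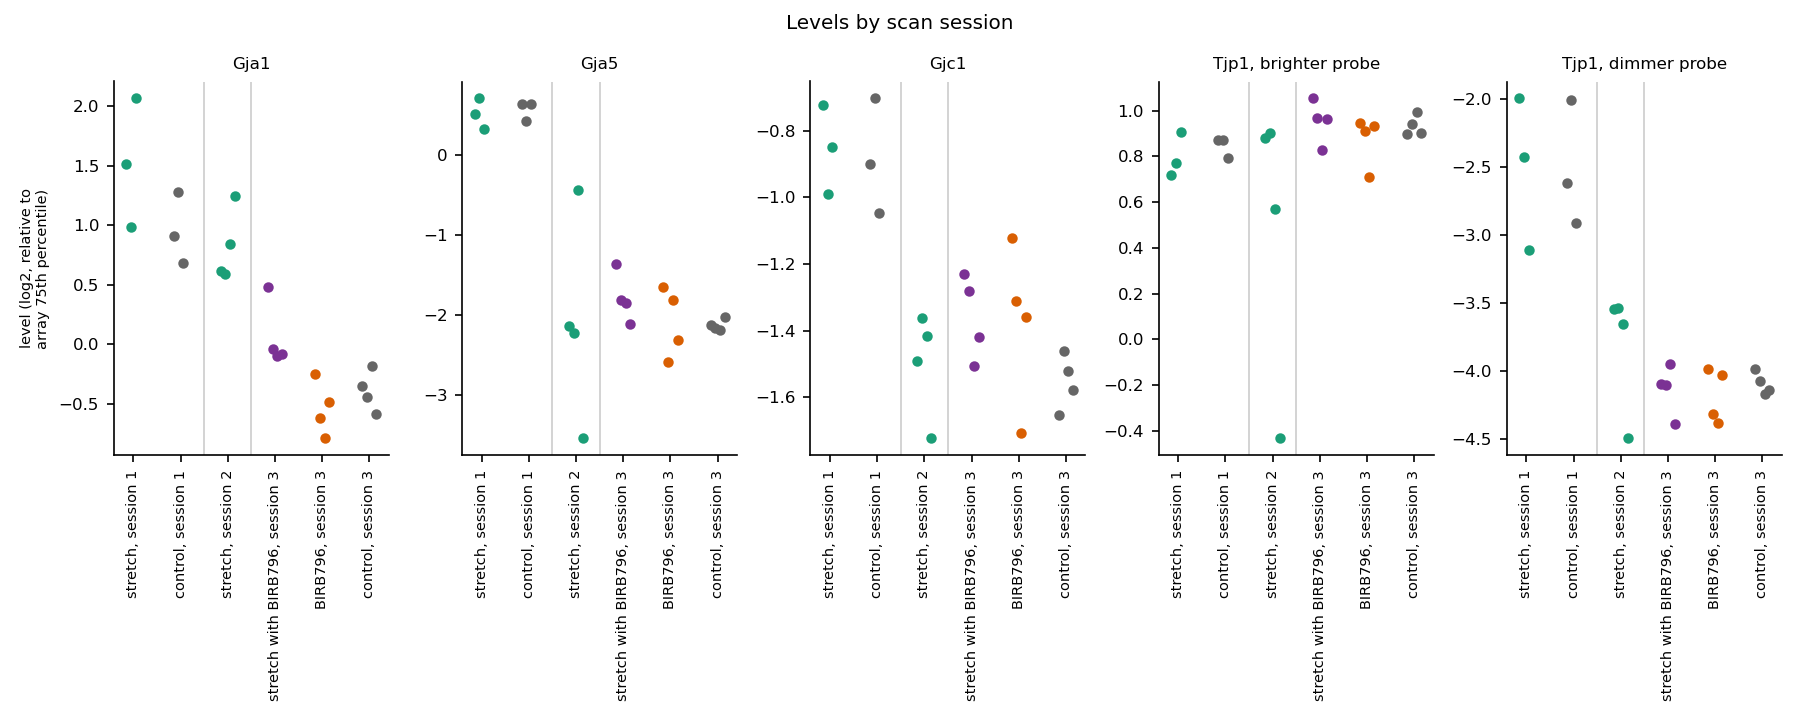
Level of the 3 connexins and of both Tjp1 probes (log2 relative to the array's 75th percentile, vertical axes of different range) on all 22 arrays, 1 point per array, by group and scan session, with vertical lines between sessions. Gja5 lies between 0.34 and 0.71 in session 1 and between -2.59 and -1.36 in session 3, whatever the treatment.

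Cdh2 encodes N-cadherin, the adhesion molecule of the disc. It averaged 0.43 ± 0.07 in stretch with BIRB796, 0.19 ± 0.22 in BIRB796 and 0.23 ± 0.23 in control in session 3 (SD, n = 4 each), with overlapping ranges, and 0.31 ± 0.27 in stretch and 0.33 ± 0.25 in control in session 1 (SD, n = 3 each). The 4 stretch arrays of session 2 were lower, at -0.53, -0.56, -0.77 and -1.69, again without a control beside them. Jup, plakoglobin, which serves both adherens junctions and desmosomes, differed little between groups: it averaged 1.62 ± 0.15 in stretch with BIRB796, 1.61 ± 0.06 in BIRB796 and 1.55 ± 0.08 in control. In session 1 Jup averaged 1.98 ± 0.14 in stretch and 1.79 ± 0.32 in control.

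Dsp encodes desmoplakin, which links the desmosomal plaque to desmin filaments. Its upstream window and its probe are shown because Dsp was the only one of the 9 genes called in session 3 with all its arrays in the fit. The 250 bases before the RefSeq start lie at chr17:26877122-26877371 of build GRCr8, minus strand, and capitals mark 4 matches to the GC box GGGCGG on either strand, 225, 190, 168 and 133 bases before the start. The matches do not overlap, the window holds none of the other 3 motifs, and 30.5% of all windows hold a GC box. The 60-base probe that gave every Dsp value starts at base 8537 of the transcript, and so lies in exonic sequence, at chr17:32848997-32849056 of build rn4, minus strand.
Dsp upstream: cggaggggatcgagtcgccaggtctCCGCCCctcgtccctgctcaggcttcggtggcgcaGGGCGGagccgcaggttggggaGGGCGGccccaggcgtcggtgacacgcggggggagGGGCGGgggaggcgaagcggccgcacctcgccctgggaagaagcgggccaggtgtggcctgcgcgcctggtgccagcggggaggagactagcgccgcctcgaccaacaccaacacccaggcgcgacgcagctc
Dsp probe: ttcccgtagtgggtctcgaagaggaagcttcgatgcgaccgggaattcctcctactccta

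Dsp was lower in both groups given BIRB796 within session 3. Its level was 0.64, 1.23, 1.23 and 1.08 in stretch with BIRB796, 0.95, 0.93, 1.00 and 0.84 in BIRB796, and 1.78, 1.69, 1.59 and 1.43 in control. Every array of both BIRB796 groups was below every control array, and the 2 inhibited groups overlapped. BIRB796 against control came to -0.70 ± 0.13 (SE), a fold of 0.617, with adjusted p = 0.0357 in the fit of session 3 alone and 0.0355 in the fit of these 2 groups of that session. Stretch with BIRB796 against control came to -0.58 ± 0.13, a fold of 0.670, with adjusted p = 0.0294 in session 3 alone and 0.0783 in the fit of these 2 groups. In the fit of all 4 groups the estimates were equal and the SE was 0.32, so that neither passed (limma adjusted p = 0.786 in BIRB796 and 0.666 when stretch was added). The call was narrow in session 3 as well. Of 12 single arrays left out, 8 ended it for BIRB796 against control (control replicates 4, 5 and 6, every BIRB796 replicate and stretch with BIRB796 replicate 4, with adjusted p up to 0.122), and 4 ended it for stretch with BIRB796 against control (control replicates 4, 5 and 6 and stretch with BIRB796 replicate 4, up to 0.0961), while the estimates stayed between -0.76 and -0.64 for BIRB796 and between -0.64 and -0.44 for stretch with BIRB796.

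Dsp was lower on each slide that held treated and control arrays, which for BIRB796 alone was slide 6 only. On slide 6 it was 0.64 in stretch with BIRB796 and 0.95 in BIRB796, against 1.78 in control, and on slide 8 it was 1.23 and 1.23 in stretch with BIRB796, against 1.43 in control. BIRB796 replicates 2, 3 and 4 were on slide 9 without a control array. Control replicates 5 and 6 were on slide 7 without a treated array, so slide and treatment cannot be told apart for these arrays. With slide as a random block the differences were -0.58 ± 0.28 for stretch with BIRB796 against control and -0.66 ± 0.33 for BIRB796 against control (adjusted p = 0.397 and 0.678, all 4 groups). Between stretch with BIRB796 and BIRB796 the Dsp difference was 0.12 with an interval from -0.17 to 0.41 in session 3. In session 1 Dsp was 0.20, 0.76 and 1.34 in stretch, against 1.28, 1.73 and 0.87 in control, lower with stretch on slides 1 and 2 (differences of -1.07 and -0.97) and higher on slide 3 (0.47), which gave -0.52 ± 0.37 (adjusted p = 1.00).

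Pkp2 encodes plakophilin 2, the plaque protein that joins desmoplakin to the desmosomal cadherins. Pkp2 was 1.03, 1.29, 1.19 and 1.26 in stretch with BIRB796, 0.94, 1.20, 1.49 and 1.23 in BIRB796, and 1.53, 1.56, 1.57 and 1.52 in control. All 8 inhibited arrays were below the 4 control arrays, which had an SD of 0.02. The differences were -0.35 ± 0.11 for stretch with BIRB796 and -0.33 ± 0.11 for BIRB796 against control in session 3 alone, folds of 0.783 and 0.796, and did not pass (adjusted p = 0.0732 and 0.131). Of the 12 single arrays left out, BIRB796 replicate 1 and BIRB796 replicate 3 each brought Pkp2 past the test in stretch with BIRB796 against control (adjusted p down to 0.0401). Pkp2 and Dsp were the 2 of 9 genes wholly below control in BIRB796, where 6.98% of all genes were, and likewise in stretch with BIRB796, where 7.95% were. None of the 9 was wholly above control in BIRB796, where 4.87% of all genes were, and none was wholly lower in stretch with BIRB796 than in BIRB796, where 1.81% were. With stretch alone in session 1 Pkp2 pointed the other way, at 2.24, 1.90 and 2.37 in stretch, against 1.91, 2.01 and 1.30 in control (0.44 ± 0.31, adjusted p = 1.00). Its difference between stretch with BIRB796 and stretch, taken through the controls of 2 sessions, was -0.79 ± 0.41 (adjusted p = 1.00).

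Dsg2 encodes desmoglein 2, the desmosomal cadherin of heart muscle, and its probe was dim throughout. It averaged -6.19 ± 0.30 in stretch with BIRB796, -6.62 ± 0.22 in BIRB796 and -6.56 ± 0.69 in control in session 3 (SD, n = 4 each). In session 1 each stretch array exceeded the control array of its slide, by 0.23, 0.26 and 0.29, a difference far smaller than the spread between slides and not called with the slide pairs in the fit (0.26 ± 0.18, SE, limma unadjusted p = 0.195).

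**Figure D3:**
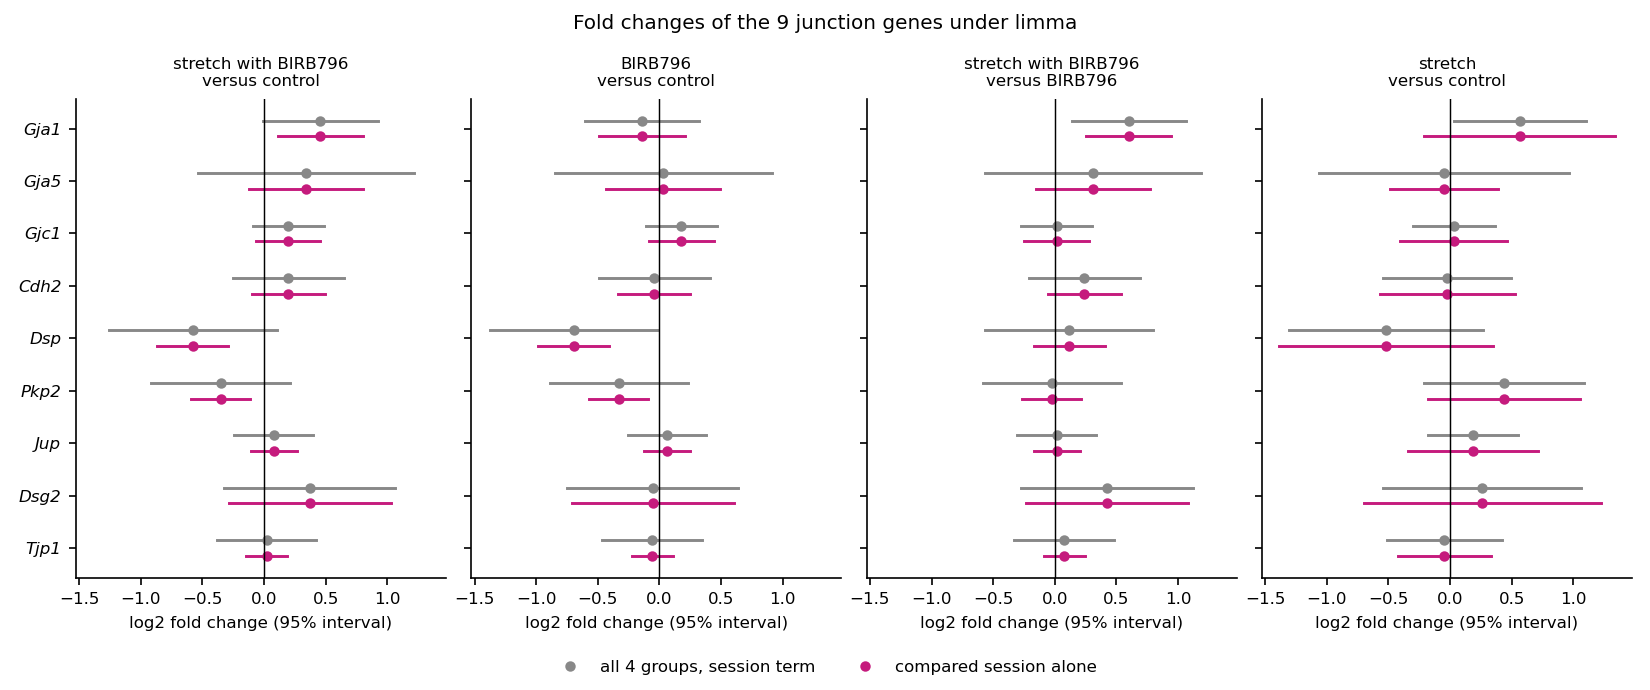
Log2 fold change of each gene (horizontal axis) with its 95% interval in 4 comparisons, from the limma fit of all 4 groups with a session term (grey) and from the session that holds the compared groups (pink: session 3 with its 3 groups, or session 1 for stretch versus control). Dsp lies at -0.58 and -0.70 against control in the 2 comparisons with BIRB796, and its intervals clear 0 in session 3 alone for both. The intervals are not adjusted for the number of genes tested. Intervals of Pkp2 and Gja1 also clear 0 in some comparisons, as does that of Dsp for BIRB796 versus control in the fit of all 4 groups.

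Tjp1 encodes ZO-1, the scaffold that binds the tail of Cx43 and borders its plaques. Its brighter probe averaged 0.95 ± 0.09 in stretch with BIRB796, 0.87 ± 0.11 in BIRB796 and 0.93 ± 0.05 in control (SD, n = 4 each, session 3), and 0.80 ± 0.10 in stretch and 0.84 ± 0.04 in control (SD, n = 3 each, session 1). The dimmer probe averaged -4.13 ± 0.19 in stretch with BIRB796, -4.18 ± 0.20 in BIRB796 and -4.09 ± 0.08 in control in session 3, and neither probe was called. Between sessions the 2 probes disagreed. Control arrays of session 1 differed from those of session 3 by 1.58 on the dimmer probe and by -0.09 on the brighter one, without overlap on either. The dimmer probe is shown for that reason. It starts at base 4973 of the transcript, against base 6108 for the brighter one, so both are exonic, and lies at chr1:119689604-119689663 of build rn4, minus strand.
Tjp1 dimmer probe: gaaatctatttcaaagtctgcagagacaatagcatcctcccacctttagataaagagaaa

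**Figure D4:**
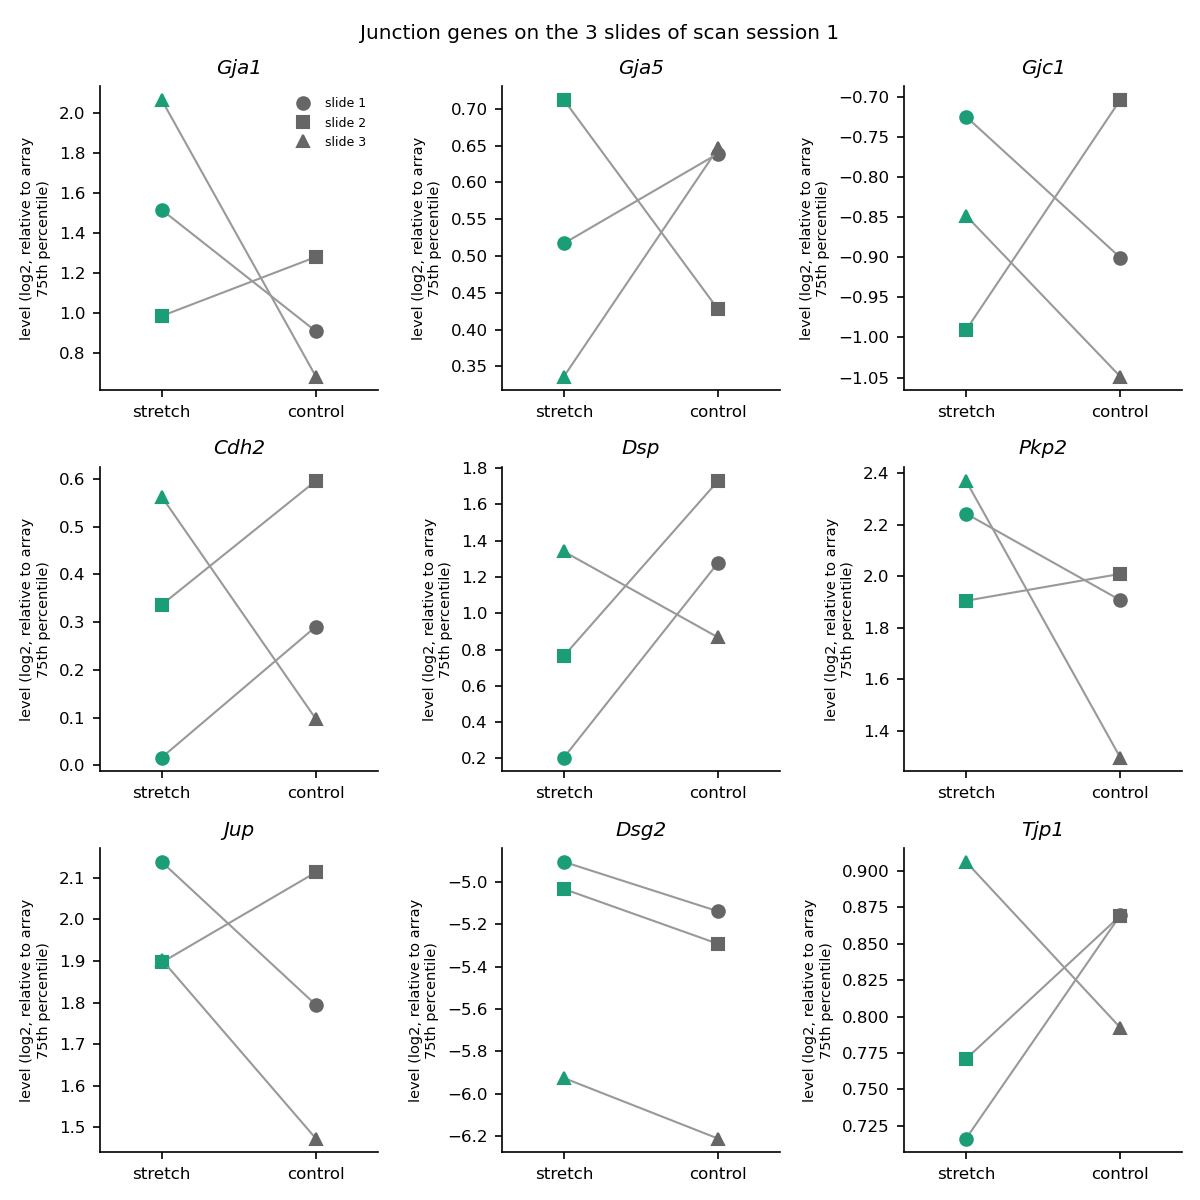
Level of each gene (log2 relative to the array's 75th percentile, vertical axis) in stretch (left) and control (right) on the 3 slides of session 1, with a line joining the 2 arrays of a slide. Gja1 is higher in stretch on slides 1 and 3 and lower on slide 2, and Dsg2 is the only gene whose 3 lines all slope the same way.

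Markers of other cell types differed between the same groups as Dsp and Pkp2 in session 3. The 8 epithelial and mesothelial markers averaged between -2.57 and -1.75 per array in stretch with BIRB796 and between -2.71 and -1.89 in BIRB796, against -1.69 to -0.72 in control, and the 5 smooth muscle markers averaged between 1.33 and 2.11 in stretch with BIRB796 and between 1.38 and 1.90 in BIRB796, against 0.43 to 0.93 in control. Krt19, a keratin of epithelia, fell by 1.31 with stretch and BIRB796 and by 1.66 with BIRB796 (adjusted p = 0.0253 and 0.0281 in session 3 alone), and Myh11, the smooth muscle myosin, rose by 1.53 with stretch and BIRB796 and by 1.61 with BIRB796 (adjusted p = 0.0164 and 0.0293). In that fit 2 of 8 epithelial markers fell in each comparison with control, and 4 of 5 smooth muscle markers rose in stretch with BIRB796 and 3 of 5 in BIRB796. Among the 12 arrays, the highest Dsp level and the highest epithelial mean were on the same array, control replicate 4, and the lowest Dsp level was on stretch with BIRB796 replicate 1, which had the highest smooth muscle mean. The lowest epithelial mean was on BIRB796 replicate 2 (-2.71, against -2.57 on stretch with BIRB796 replicate 1). The lowest smooth muscle mean was on control replicate 6 (0.43, against 0.50 on control replicate 4). Over the 12 arrays the Pearson correlation of Dsp was 0.94 with the epithelial mean and -0.93 with the smooth muscle mean. For Pkp2 the values were 0.85 and -0.91. With the macrophage mean they were 0.71 for Dsp and 0.68 for Pkp2. These correlations include the differences between groups and carry no test. Desmoplakin and plakophilin 2 are also made by epithelial cells, and in whole tissue fewer cells of a type and less RNA per cell cannot be told apart. The part of these cells in the Dsp and Pkp2 differences was not tested.

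None of the 10 heart muscle markers was called. They averaged 4.50 to 4.68 in stretch with BIRB796 and 4.44 to 4.65 in BIRB796, against 4.50 to 4.90 in control. Of the 7 macrophage markers 5 fell in stretch with BIRB796 against control, as did 3 of 7 endothelial markers, and none of either list was called in BIRB796 against control. The fibroblast markers had 0 of 7 called in both comparisons, and of 3 erythroid markers measured 1 fell in stretch with BIRB796.

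**Figure D5:**
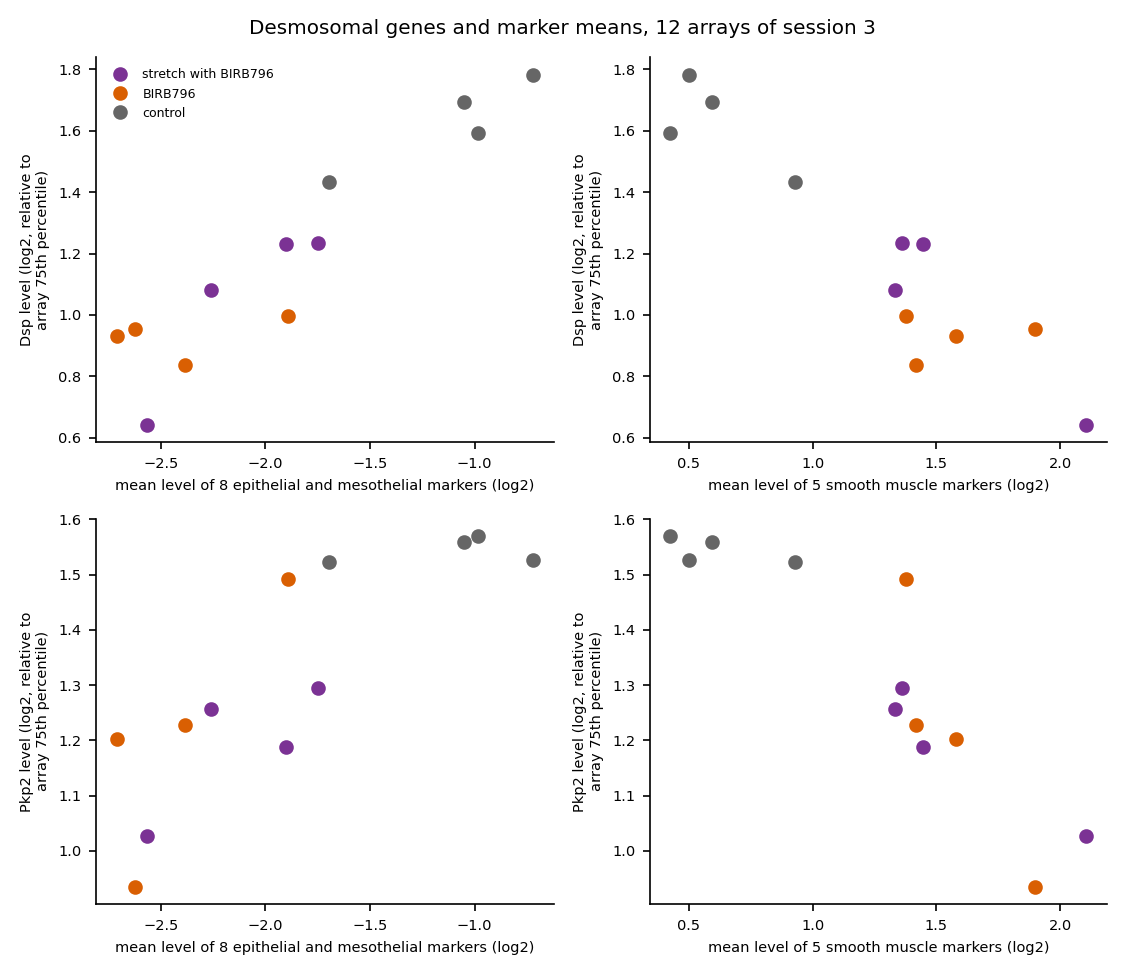
Level of Dsp (top) and Pkp2 (bottom), log2 relative to the array's 75th percentile, against the mean level of 8 epithelial and mesothelial markers (left) and of 5 smooth muscle markers (right) on the 12 arrays of session 3, coloured by group. The 4 control arrays hold the highest levels of both genes, the highest epithelial means and the lowest smooth muscle means.

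The other genes of gap, adherens, desmosomal and tight junctions give the setting. Of 66 listed, 57 were tested, and in the fit of all 4 groups 0 were called in each of the 6 comparisons, with medians between -0.13 and 0.14. There the smallest p of stretch versus control belonged to Jam2, a junctional adhesion molecule (-0.63 ± 0.22), and Xirp2, an actin-binding protein of the disc (1.49 ± 0.54), and those of stretch with BIRB796 versus BIRB796 to Cldn5, an endothelial claudin (-1.37 ± 0.46), and Xirp2 (1.34 ± 0.47), each at adjusted p = 1.00. Gjb6, an epithelial connexin, came nearest to a call in stretch with BIRB796 versus control (adjusted p = 0.0513), followed by Xirp2 (2.10 ± 0.47, adjusted p = 0.0929). In BIRB796 versus control the smallest p belonged to Gjb6 (adjusted p = 0.222), in stretch with BIRB796 versus stretch to Gjb6 and Jam2, and for the difference of the stretch effects to Jam2, with adjusted p = 1.00 in both of the last comparisons.

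In session 3 alone, 5 of the 57 rose and 4 fell in stretch with BIRB796 against control (7.6% of all genes were called), and 3 rose and 1 fell in BIRB796 against control (1.8%), with a median of -0.04 in stretch with BIRB796 (0.04 over all genes) and of -0.11 in BIRB796 (-0.03 over all genes). Vcl, vinculin, the actin linker of adherens junctions, rose by 0.78 in stretch with BIRB796 and by 0.79 in BIRB796 (adjusted p = 0.0190 and 0.0360), with levels of 1.11 to 1.63 in stretch with BIRB796 and 1.16 to 1.59 in BIRB796, against 0.32 to 0.88 in control. Jam3, another junctional adhesion molecule, rose by 0.33 in stretch with BIRB796 and by 0.34 in BIRB796 (adjusted p = 0.0253 and 0.0441). Xirp2 rose by 2.10 and Nrap, which anchors actin at the disc, by 0.78 in stretch with BIRB796 (adjusted p = 0.0119 and 0.0202), and in BIRB796 they came to 0.76 and 0.39 without passing (adjusted p = 0.236 and 0.204). Pkp1, a plakophilin of epithelia named after its value was seen, rose by 1.58 in stretch with BIRB796 (adjusted p = 0.0458). Panx2, a pannexin, F11r, an epithelial and endothelial adhesion molecule, and Cldn5 fell by 0.63, 0.64 and 1.81 in stretch with BIRB796 (adjusted p = 0.0186, 0.0288 and 0.0363).

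Gjb6 fell in both groups, and there its signal was not well above background on any of the 4 arrays, against 3 of 4 arrays above it in control. The size of the fall is therefore uncertain. A reckoning took, on each array, the higher of the probe's own signal and the dimmest signal above background. Against the control mean it gave 1.49-fold lower in stretch with BIRB796 and 1.72-fold lower in BIRB796. These folds are no lower bound, because signal not above background could be brighter. Gjb1 reached -7.52 in stretch with BIRB796 with 0 of 4 arrays above background, against the Gjb6 control mean of -7.76. The measured Gjb6 means were -9.26 in stretch with BIRB796 and -8.93 in BIRB796 (limma in session 3 alone, adjusted p = 0.00493 and 0.0213 against control). No gene of the 57 was called between stretch with BIRB796 and BIRB796.

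None of the 5 genes that varied most like Gja1 bore the name of a listed junction gene. Over the 12 arrays of session 3, which share a scan session and partly their slides, the 5 highest Pearson correlations with Gja1 lay between 0.93 and 0.95. One of these genes has a symbol, Bud23, a methyltransferase of ribosomal RNA (r = 0.93), and the other 4 are known only by transcript or probe identifiers. This is a ranking of 23479 genes over 12 arrays and carries no test.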

How the data were processed

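RNA of 22 tissues, described by the labels as biological replicates, was hybridised to single-colour Agilent rat arrays. Each array's file gives a linear intensity per spot, from which background was subtracted within that array, with no normalization across arrays, per the file headers (Feature Extraction 10.7.1.1, 10.7.3.1 and 11.0.1.1, array design on build rn4). The series' deposited value table holds log2 values of 27873 probes. Each probe's mean over the arrays was subtracted from the table and from the scaled log2 signal. Each column then followed the signal of its own array (r = 1, slope 1). This comparison cannot show whether the table's values are relative to a baseline of each probe. The column medians ran from -0.11 to 0.40. The baseline of the deposited values is not given in the sources used here.

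Control spots and outlier spots were dropped, spots of a probe averaged, and the processed signal expressed as log2 minus the array's 75th percentile. A probe was kept if its signal exceeded background clearly on 4 or more arrays (26884 of 30367), and the brightest probe stood for its gene. The members and lists were chosen with earlier results of these data known. limma 3.58.1 (R 4.3.3, statmod 1.5.0) fitted all 4 groups with a scan session term, two-sided, with Benjamini-Hochberg adjustment over 23479 genes and a threshold of 0.05; standard errors and adjusted p-values of single genes come from these fits across all genes. The fit was tested on simulated data in which a gene had the same spread on all arrays. That test does not cover the unequal spread between sessions. Intervals are at 95%. The number of arrays limits the precision.

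All 9 members were named whatever their values, with other listed junction genes named where called (at most the 4 smallest p each way per comparison) or otherwise the 2 smallest p, and the 5 genes most correlated with Gja1. A listed junction gene is counted but not reported here by name. Spread between stretch replicates 4 and 5 was 0.609 of the spot noise, against 1.39 or more for the other pairs within groups. In session 1, stretch and control arrays of the same number share a slide, so the numbers pair them. Their deviations from the group means correlated at r = 0.51, 0.15 and 0.57, the best match for replicates 1 and 3 but not for replicate 2. Normexp, planned on mean signals, was run on median signals, since most files give no mean. The alternatives comprised the session term, session and slide, scaling, background correction, the deposited table, filters, probe choice, the replicate block and single arrays left out. No column of per-sample values was left unused. Promoters come from the RefSeq table of build GRCr8, which held 6 of the 9 members. Figures were drawn with matplotlib 3.10.9 (Python 3.11.15).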

Additional observations from a re-analysis of the deposited data

Results flagged for a closer look

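In 45 groups of 4 to 7 samples, formed by gene and by treatment within all arrays or 1 session, 4 held a sample far from the others, where chance would give about 1 in 20 groups. That rate is a rough guide only, because groups over all arrays pool scan sessions and can share arrays with groups of 1 session. Gja1 on stretch with BIRB796 replicate 1 was 0.48, against -0.10 to -0.04 on the other arrays of that group. Tjp1 on BIRB796 replicate 3 was 0.71, against 0.91 to 0.95 on the others. Tjp1 on stretch replicate 7 was -0.43 and Pkp2 on stretch replicate 6 was 0.23, both from session 2, whose arrays had the largest spread between samples. Stretch replicate 7 had the fewest probes above background of all arrays (65.5%). On stretch replicate 6 the 10 heart muscle markers averaged 2.85, against 3.88 to 4.90 on the other arrays. Whether either bears on these values was not tested.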

How the results depend on the processing

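The count of the 9 genes called was 0 in every comparison of the fit with all 4 groups, and it was also 0 without any single replicate (0 to 0), without a session term, with slide as a random block, under the other scalings, background correction, filters and probe choice, from the deposited value table and without the session 2 arrays. It was 1 (Dsp) for BIRB796 versus control in the compared groups of session 3 alone, and 1 (Dsp) for both BIRB796 versus control and stretch with BIRB796 versus control in session 3 with its 3 groups, a fit chosen after seeing the data. These fits drop the arrays of the other sessions from the spread. The replicate block gave 0 called genes in stretch versus control, where the numbers pair the arrays, and changed no call. In stretch with BIRB796 versus BIRB796, where they do not (r = 0.53, 0.01, 0.09 and 0.08), it gave 0 as well. The Dsp difference lay between -0.73 and -0.61 for BIRB796 versus control and between -0.68 and -0.56 for stretch with BIRB796 versus control over 4 scalings and sources of values. Of 54 fold changes of the 9 genes, 28 changed sign under at least 1 alternative, none of them called, the largest being 0.46 for Gja1 in stretch with BIRB796 versus control, which was -0.12 without the session term. Genes called in stretch with BIRB796 versus control numbered 18 of 23479 (5 higher, 13 lower), against 30 with median scaling (5 higher, 25 lower), 177 with slide as a random block, 655 without session 2, 1784 in session 3 with its 3 groups, 651 in its compared groups alone and 1 without the session term. Single arrays moved this count as well: it was 0 without control replicate 4, 5 or 6 or stretch with BIRB796 replicate 4. Leaving out stretch with BIRB796 replicate 1 gave 6, replicate 2 gave 1 and replicate 3 gave 2. The count was 8 without BIRB796 replicate 2, 9 without control replicate 1, 31 and 42 without stretch replicates 6 and 3, 142 without control replicate 7 and 197 without stretch replicate 7. In BIRB796 versus control the count was 0, against 4, 2, 125, 422, 293 and 0 under the same alternatives, and leaving out control replicate 7 gave 17, stretch replicate 6 gave 5 and stretch replicate 3 gave 2. In the other 4 comparisons it was 0 with all arrays and at most 2 without any single array.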
